A study of Mus musculus with 8 samples.

Results

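Imprinted genes are transcribed mainly from a single parental chromosome, and 49 of them, which fall into 20 imprinted loci of the mouse, were examined for the heterochromatin mark H3K9me3 in colon crypts. A peak belonged to this set when the submitters had annotated it with a listed gene, overlapping or within 5 kb. In all, 49 of the 53761 H3K9me3 peaks qualified, and they were annotated with 26 of the 49 genes in 17 of the 20 loci. H3K9me3 had been measured by ChIP-seq in whole colon crypt isolates of C57BL/6 mice, comparing wild type (WT) with animals in which *Smarcad1* was deleted by *Vil-cre* (KO), with 3 ChIP libraries and 1 input library of each genotype. All mice were males per the study's methods, and their age for this assay was not given in the sources used here. The cre was driven by the villin promoter, which is active in intestinal epithelium, so any other cells of the isolates would have kept the gene. *Smarcad1* itself was the annotated gene of 0 peaks, and neither the deletion nor the identity of the crypt cells could be checked in these data. Levels are given throughout as log2 read counts of a peak, which the submitters had matched to a shared distribution over the 6 ChIP libraries. A median peak held 14 to 20 reads per library, and the median SD over 3 replicates was 0.21 in WT and 0.25 in KO at the imprinted peaks. Reads were not separated by parental chromosome, so each value sums both alleles.

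The parental difference at most imprinted loci goes back to a differentially methylated region, or imprint control region, that receives DNA methylation in the egg or in the sperm. On the methylated chromosome the zinc finger protein ZFP57 binds the methylated hexamer TGCCGC and brings in TRIM28 (KAP1) and the H3K9 methyltransferase SETDB1, so that the methylated allele carries H3K9me3 and the other does not. SMARCAD1 is a chromatin remodelling ATPase that is known to bind TRIM28. The comparison asks for each control region whether it was marked in WT crypts and whether the level differed without SMARCAD1.

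The ZFP57 hexamer is shown here in a selection of marked regions. The letters are GRCm38 reference sequence on the plus strand, and the capitals mark the hexamer or its reverse complement GCGGCA. Each line is the stretch of at most 300 bases outside annotated UTRs with the most copies in its peak. The regions lay upstream of *H19*, between *Dlk1* and *Meg3*, within *Kcnq1ot1*, and at the starts of *Cdkn1c*, *Peg3*, *Mest* and *Airn*. They were not all those with the most copies. Stretches that are not printed held 4 copies each in the peaks over *Nespas* and *Peg13*, and 3 copies within 44 bases at *Mkrn3*.
H19 control region, intergenic, chr7:142580087-142580336, 2068 bases upstream of H19: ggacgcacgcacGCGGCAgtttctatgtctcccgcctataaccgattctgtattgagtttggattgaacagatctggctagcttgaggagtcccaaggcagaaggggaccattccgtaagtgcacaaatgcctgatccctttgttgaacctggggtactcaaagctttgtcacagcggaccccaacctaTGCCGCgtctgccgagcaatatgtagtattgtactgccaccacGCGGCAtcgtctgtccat
Between Dlk1 and Meg3, intergenic, chr12:109528284-109528456, 12631 bases upstream of Meg3: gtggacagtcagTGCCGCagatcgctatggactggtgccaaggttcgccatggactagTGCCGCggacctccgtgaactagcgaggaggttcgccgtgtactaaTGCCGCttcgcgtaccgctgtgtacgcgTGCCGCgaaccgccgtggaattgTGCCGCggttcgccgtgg
Kcnq1ot1, exon of the non-coding RNA inside Kcnq1, chr7:143295657-143295758, 842 bases downstream of the Kcnq1ot1 start: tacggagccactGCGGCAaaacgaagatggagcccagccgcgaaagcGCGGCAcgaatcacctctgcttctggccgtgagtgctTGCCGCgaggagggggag
Cdkn1c, intron, chr7:143459443-143459496, 158 bases upstream of its nearest annotated start: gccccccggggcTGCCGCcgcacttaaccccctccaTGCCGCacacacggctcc
Peg3, intron, chr7:6730050-6730184, 302 bases downstream of a Peg3 start: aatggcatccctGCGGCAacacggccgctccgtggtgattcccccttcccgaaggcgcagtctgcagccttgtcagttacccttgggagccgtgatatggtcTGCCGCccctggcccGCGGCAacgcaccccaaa
Mest, intron, chr6:30737594-30737825, 340 bases upstream of its nearest annotated start: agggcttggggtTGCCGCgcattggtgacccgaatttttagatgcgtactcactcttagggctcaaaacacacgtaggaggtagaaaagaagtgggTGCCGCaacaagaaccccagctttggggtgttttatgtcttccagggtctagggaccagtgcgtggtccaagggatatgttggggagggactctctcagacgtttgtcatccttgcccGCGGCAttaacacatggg
Airn, intron of Airn and of Igf2r, chr17:12742181-12742396, 890 bases downstream of the Airn start: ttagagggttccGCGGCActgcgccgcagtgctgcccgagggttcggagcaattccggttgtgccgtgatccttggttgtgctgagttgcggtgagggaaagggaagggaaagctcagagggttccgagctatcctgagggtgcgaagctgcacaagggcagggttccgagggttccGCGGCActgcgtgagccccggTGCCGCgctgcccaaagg
The stretch between *Dlk1* and *Meg3* packed 5 copies into 173 bases, and the 3 copies in *Kcnq1ot1* lay within 102 bases. The peaks that hold these 2 stretches were annotated with no gene and with *Kcnq1*, and so stood outside the 49.

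The imprinted peaks held this hexamer more often than H3K9me3 peaks in general. At least 1 copy was found in 24 of 49 imprinted peaks and in 9.20% of all 53761 peaks, at least 3 copies in 13 imprinted peaks and in 0.432% of all peaks, and at least 8 copies in 4 imprinted peaks and in 18 of all peaks. At least 3 copies within 300 bases occurred in 57 peaks of the whole table, of which 9 were among the 49. The highest counts were 14 copies in the peak over *Nespas* and *Gnas*, 13 over the *Mest* promoter, 8 each at *Peg3* and at the *Airn* start, and 6 each at *H19*, *Nnat* and *Peg13*. These peaks were wider than most, with a median of 2250 bp against 1050 bp, and a wide peak has more room for a hexamer. Among peaks from 1500 bp to under 3000 bp the hexamer was present in 44.4% of 18 imprinted peaks and 12.5% of all, and among peaks of 3000 bp or more in 81.3% of 16 and 32.5% of all. The imprinted peaks were also richer in CpG, with a median observed-to-expected ratio of 0.29 against 0.15, and poorer in repeats, which made up a median of 14.2% of their bases against 37.8%. A window of 200 bases that meets the usual limits for a CpG island (GC above 50%, observed-to-expected CpG above 0.6) lay in 24 of 49 imprinted peaks and in 11.4% of all peaks, and such peaks are called island-like below. The hexamer was found in 21 of the 24 island-like imprinted peaks, compared to 35.3% of all island-like peaks, and in 3 of the other 25.

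**Figure D1:**
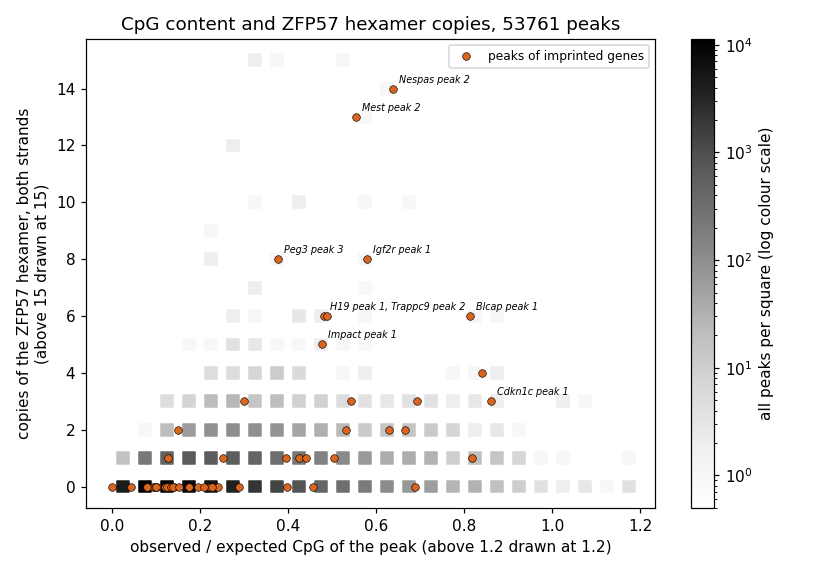
Observed-to-expected CpG of each peak (x axis) against its number of copies of the ZFP57 hexamer on both strands (y axis). Grey squares hold all 53761 peaks, and orange points are the 49 peaks of imprinted genes, of which 13 hold at least 3 copies, a number reached by 0.432% of all peaks.

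No peak was annotated with the other 23 genes, *Asb4*, *Calcr*, *Copg2*, *Dio3*, *Dlk1*, *Gnas*, *H13*, *Herc3*, *Igf2*, *Kcnq1ot1*, *Mcts2*, *Mirg*, *Nap1l5*, *Nnat*, *Peg13*, *Phlda2*, *Plagl1*, *Rian*, *Rtl1*, *Slc22a3*, *Snurf*, *Ube3a* and *Zrsr1*. Several of these lie inside a neighbour that took the annotation. The start of *Nnat* lay in the *Blcap* peak, that of *Peg13* in a *Trappc9* peak, that of *Zrsr1* in a *Commd1* peak, a start of *Gnas* in each of the *Nespas* peaks, and the start of *Kcnq1ot1* in a *Kcnq1* peak. *Plagl1*, a zinc finger growth regulator, was crossed in an intron by a peak with no annotated gene (chr10:13070551-13071900). For the remaining 17 genes the nearest peak lay between 2685 bp (*Igf2*) and 165775 bp (*Nap1l5*) away. *Snurf*, whose promoter carries the control region of the Prader-Willi domain, was 31899 bp from any peak, and *Mcts2* was 40285 bp away. A region missing from the peak list had not passed peak calling at this depth, which does not show that it carried no H3K9me3.

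The difference between KO and WT was tested with limma at all 53761 peaks, of which 892 (1.66%) passed a Benjamini-Hochberg adjusted p of 0.05, with 428 higher in KO (0.796%) and 464 lower (0.863%). Among the 49 imprinted peaks 1 was higher and 0 were lower, and that peak lay over *Cdkn1c*. Leaving out WT replicate 2 reduced the 892 to 570, with 371 higher and 199 lower. Higher calls also outnumbered lower ones without WT replicate 1 (378 and 244), WT replicate 3 (373 and 253) or KO replicate 3 (426 and 379). The imprinted count stayed at 1 higher and 0 lower when any single library was left out. With an untrended variance prior the counts were 127 and 0. After subtraction of the log2 input, 9361 peaks were higher and 6512 lower over the whole table, and 9 and 3 among the imprinted peaks; each genotype has only 1 input, whose own error does not enter that test. At an unadjusted p under 0.05, 7 imprinted peaks were higher (4.52% of all peaks) and 2 lower (6.06% of all peaks). The KO libraries ranked entirely above the WT libraries at 5 imprinted peaks and entirely below at 5, compared to 7.20% and 8.42% of all peaks. Log2 fold changes of the 49 ranged from -0.77 to 1.00, with a median of 0.09 against 0.00 over all peaks. That median was 0.055 without KO replicate 3 and 0.13 without WT replicate 1, and after subtraction of the log2 input it was 0.088 against 0.090 over all peaks. Island-like imprinted peaks had a positive fold change in 20 of 24 cases with a median of 0.26, and the others in 13 of 25 with a median of 0.01. After subtraction of the log2 input the positive cases were 14 of 24 (median 0.18) and 13 of 25 (median 0.01). Without KO replicate 3 they were 16 of 24 (median 0.29) and 10 of 25 (median -0.05). Leaving out WT replicate 3 gave 17 of 24 (median 0.15) and 11 of 25 (median -0.04). Any other single library left out gave 18 to 20 of 24 island-like peaks. Over the whole table the positive share was 53.9% of island-like and 49.8% of other peaks, and 3.94% and 0.391% of them were called higher in KO. Lower calls made up 1.66% of island-like and 0.760% of other peaks.

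**Figure D2:**
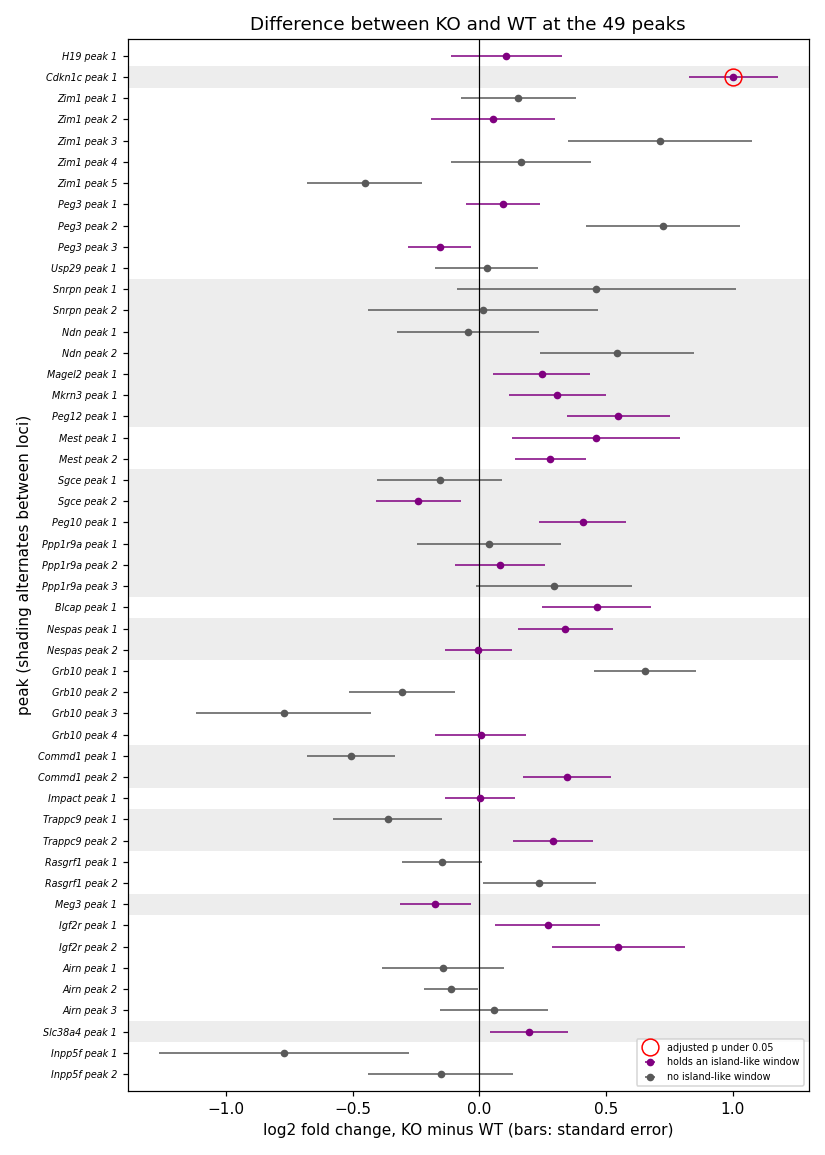
Log2 fold change from WT to KO (x axis, bars give the standard error from limma) at each of the 49 peaks (y axis, grouped by locus and numbered along the chromosome within a gene). Purple points are the 24 island-like peaks, grey points the other 25, and the red circle marks *Cdkn1c*, at 1.00 the only peak with an adjusted p under 0.05.

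*Cdkn1c* encodes p57, a maternally expressed inhibitor of cyclin-dependent kinases. Its peak of 2850 bp (chr7:143458801-143461650) covered the start of the gene, with 55.7% of its bases in exons, 23.3% in introns and 21.1% outside annotated genes. The level was 5.21, 5.15 and 5.54 in WT replicates 1, 2 and 3 and 6.50, 6.28 and 6.13 in the KO replicates. Each KO library was thus higher than each WT library, and the steps of the values gave 33, 40 and 53 reads in WT and 76, 88 and 71 in KO. The log2 fold change was 1.00 (standard error, SE, 0.17, limma adjusted p = 0.00012), or 0.91 to 1.12 when single libraries were left out, and the adjusted p rose to 0.20 under the prior without a trend. The inputs held 23 reads in WT and 24 in KO over this peak. The *Cdkn1c* peak was the most CpG-dense of the 49, with 101 CpG per kb, a GC content of 68.5% and 3 copies of the hexamer, 2 of which are in the stretch printed above. In WT its level per kb (3.79 on the log2 scale) was at the 24.0 percentile of all peaks, so it was not among the denser peaks. Island-like peaks were called higher and also lower in KO more often than others over the whole table, as given above. The part of base composition in the *Cdkn1c* result was not tested.

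The *Cdkn1c* gene is controlled over a long distance by *Kcnq1ot1*, a paternally expressed antisense RNA whose promoter is the maternally methylated control region of the cluster. A peak of 2100 bp with *Kcnq1* as its annotated gene covered the *Kcnq1ot1* start (chr7:143294551-143296650). Its level was 5.03, 5.28 and 5.29 in WT and 5.74, 5.97 and 5.57 in KO, so the groups did not overlap here either. The log2 fold change was 0.56 (SE 0.19, 95% interval 0.18 to 0.94), which did not pass the threshold (limma adjusted p = 0.15). The inputs held 18 reads in WT and 25 in KO over this peak. After subtraction of the log2 input its fold change was 0.085. A peak further inside *Kcnq1ot1* (chr7:143249401-143251350) overlapped between the groups, with a log2 fold change of 0.06 (SE 0.23). *Phlda2*, the placental growth regulator next to *Cdkn1c*, had no peak within 39895 bp.

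**Figure D3:**
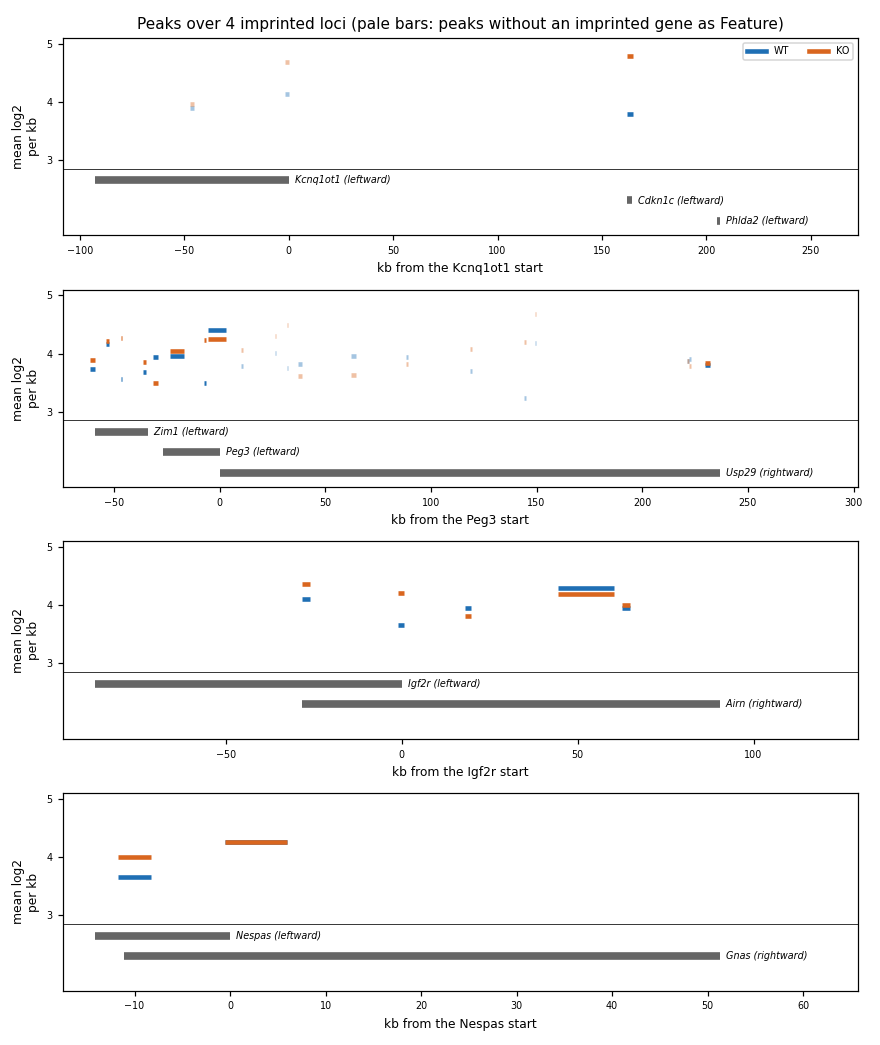
Mean H3K9me3 per kb of peak on the log2 scale (y axis) along 4 imprinted loci, with distance in kb from the start of the gene named under each panel (x axis). Blue bars are WT and orange bars KO means of 3 libraries, pale bars are peaks without an imprinted gene as annotation, grey bars are genes, and *Cdkn1c* shows the widest gap between the genotypes among the full-colour bars.

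Control regions that are methylated in sperm lie between genes. At the *H19*-*Igf2* locus, *H19* is a maternally expressed non-coding RNA and *Igf2* the paternally expressed growth factor that shares its enhancers. The *H19* peak (chr7:142579801-142582200) lay 1658 bp upstream of *H19* and held 6 hexamers. Its level was 5.38, 5.25 and 4.80 in WT and 5.64, 5.39 and 4.72 in KO. The groups overlapped, with a log2 fold change of 0.11 (95% interval -0.33 to 0.55). At the *Dlk1*-*Dio3* locus *Meg3* is the maternally expressed non-coding RNA, and its peak (chr12:109537651-109543200, 5550 bp) ran from upstream of the promoter into the gene, with 60.4% of its bases outside genes. The *Meg3* level was 6.71, 6.72 and 6.89 in WT and 6.56, 6.47 and 6.78 in KO, which overlapped (log2 fold change -0.17, 95% interval -0.46 to 0.11). The unannotated peak between *Dlk1* and *Meg3* (chr12:109527601-109529100), chosen after its values were seen, had 6 hexamers and levels of 3.88, 4.65 and 4.49 in WT and 4.06, 4.35 and 5.02 in KO. These overlapped as well, with a log2 fold change of 0.13 (95% interval -0.41 to 0.68). *Rasgrf1*, a paternally expressed exchange factor for Ras, had 2 peaks inside the gene and none at its start. At the stronger (chr9:89924551-89928300, exons and introns) the level was 6.29, 6.42 and 6.11 in WT and 6.10, 5.94 and 6.34 in KO. The other (chr9:89937451-89939550) was 93.1% repeat sequence, the highest share of the 49, and its log2 fold change was 0.24 (SE 0.22). Peaks more than 5 kb outside *Rasgrf1* were not taken up, so a control region beyond that distance was not described.

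Most other control regions are methylated in the egg and coincide with the promoter of a paternally expressed gene. *Peg3*, a zinc finger gene, and *Usp29*, a ubiquitin protease gene, start back to back in such a region. The peak there (chr7:6724951-6733350, 8400 bp, 8 hexamers) had a level of 7.37, 7.56 and 7.50 in WT and 7.28, 7.13 and 7.55 in KO. The range of KO reached into that of WT, and the log2 fold change was -0.16 (95% interval -0.41 to 0.09). Per kb its WT level was 4.41 on the log2 scale, at the 90.8 percentile of all peaks. Over exons of *Peg3* a second wide peak (chr7:6707101-6713400) showed no copy of the hexamer, and its level was 6.61, 6.56 and 6.67 in WT and 6.65, 6.47 and 7.00 in KO. A narrow peak between them (chr7:6722851-6724050) at a further *Peg3* start was weak, at 3.20, 4.37 and 3.71 in WT and 4.97, 3.94 and 4.55 in KO, and the groups overlapped. The 5 peaks at the neighbouring zinc finger gene *Zim1* ranged in fold change from -0.45 to 0.71. The lowest of these lay 2551 bp upstream of *Zim1* (chr7:6699001-6701100), where all KO values were below all WT values without passing the test (limma adjusted p = 0.48). The peak annotated with *Usp29* (chr7:6960151-6962700) lay at the far end of the gene, over an alternative start, at 5.07, 5.38 and 5.01 in WT and 5.14, 5.08 and 5.34 in KO. A further 11 peaks with no annotated gene fell inside *Usp29* as GENCODE draws it.

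The strongest level relative to input among the CpG-rich promoters was at *Mest*, which encodes a paternally expressed hydrolase-like protein. Its peak (chr6:30734251-30739950, 5700 bp) held the starts of several *Mest* transcripts. The level was 6.94, 6.80 and 6.48 in WT and 7.16, 7.11 and 6.81 in KO, on the log2 scale. The KO values were the higher ones in mean, though the groups overlapped, with a log2 fold change of 0.28 (95% interval -0.00 to 0.56, limma adjusted p = 0.48). In WT it stood 1.66 above the log2 input, at the 90.8 percentile of all peaks. The inputs held 34 reads in WT and 51 in KO over this peak. After subtraction of the log2 input its fold change was -0.31. A smaller peak upstream (chr6:30732601-30733500), at the start of a further *Mest* transcript, had 3.37, 3.95 and 3.25 in WT and 4.25, 3.49 and 4.20 in KO. *Peg10*, a gene derived from a retrotransposon, and *Sgce*, the gene of epsilon-sarcoglycan, also start back to back, in a peak of 3450 bp (chr6:4746151-4749600). There the level was 6.29, 5.95 and 5.87 in WT and 5.74, 5.90 and 5.75 in KO, with a log2 fold change of -0.24 (95% interval -0.58 to 0.10). The peak over the *Peg10* coding exon (chr6:4753801-4757550) had a fold change of the opposite sign, at 5.64, 5.86 and 5.80 in WT and 6.48, 5.85 and 6.19 in KO (log2 fold change 0.41, limma adjusted p = 0.33). The inputs held 35 and 40 reads there. Another *Sgce* peak and the 3 peaks in introns of *Ppp1r9a*, a neuronal scaffold gene of the same cluster, had fold changes between -0.16 and 0.29.

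*Nnat*, a small membrane protein gene, lies within an intron of *Blcap*, and its promoter is the control region. The peak over it (chr2:157559251-157560900, 1650 bp) held 6 hexamers, 4 of them within 300 bases. Its level was 4.87, 5.15 and 4.65 in WT and 5.41, 5.69 and 4.97 in KO. The highest WT library exceeded the lowest KO library, and the log2 fold change of 0.46 (95% interval 0.03 to 0.90) did not pass the adjusted threshold (limma adjusted p = 0.41). The inputs held 15 reads in WT and 22 in KO over this peak. After subtraction of the log2 input its fold change was -0.089. At *Gnas*, which encodes a G protein alpha subunit and has several imprinted promoters, the antisense RNA *Nespas* starts in a peak of 6450 bp (chr2:174294901-174301350). The level in that peak was 7.08, 6.89 and 6.87 in WT and 7.01, 6.88 and 6.94 in KO, with a log2 fold change of -0.00 (95% interval -0.27 to 0.26). It had the most hexamers of the 49 peaks, 14, of which 5 fell within 300 bases. The second *Nespas* peak (chr2:174283651-174287100), over the start of the first *Gnas* transcript, stood at 5.50, 5.25 and 5.60 in WT and 6.08, 5.92 and 5.37 in KO. Those groups overlapped, with a log2 fold change of 0.34 (95% interval -0.04 to 0.72).

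*Grb10*, an adaptor that restrains insulin signalling, had 4 peaks, all inside the gene. The CpG-rich one over an alternative promoter (chr11:12024751-12027300) held 4 hexamers within 300 bases and stood at 5.73, 5.64 and 5.45 in WT and 5.53, 5.79 and 5.51 in KO. Its log2 fold change was 0.00 (95% interval -0.36 to 0.37). The other 3 peaks lay in introns, held no hexamer and separated the genotypes completely, in both directions. At chr11:11987701-11990100 the level was 4.82, 5.15 and 4.75 in WT and 5.41, 5.64 and 5.64 in KO (log2 fold change 0.65, SE 0.20, limma adjusted p = 0.090), the nearest miss of the 49. At chr11:12014401-12015150 it was 3.99, 4.10 and 3.89 in WT and 2.87, 3.02 and 3.77 in KO (log2 fold change -0.77, limma adjusted p = 0.39). The third intronic peak (chr11:12004951-12006900) had a log2 fold change of -0.31 (SE 0.21). None of these 3 passed the threshold.

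*Zrsr1*, a retrogene related to a splicing factor, sits in an intron of *Commd1*. The peak over *Zrsr1* (chr11:22971151-22974450) stood at 5.70, 5.69 and 5.51 in WT and 6.29, 5.90 and 5.75 in KO. All KO values were higher, by 0.35 on the log2 scale (95% interval -0.01 to 0.70, limma adjusted p = 0.49). A second *Commd1* peak in an intron (chr11:22966051-22969200), of which 59.6% was repeat sequence, showed the opposite order, with 5.88, 5.95 and 6.13 in WT and 5.60, 5.53 and 5.30 in KO. Its log2 fold change was -0.51 (SE 0.17, limma adjusted p = 0.17), again short of the threshold. *Peg13* is a non-coding RNA inside *Trappc9*, and the peak over the *Peg13* start (chr15:72807751-72811800, 6 hexamers) had levels of 6.51, 6.12 and 6.01 in WT and 6.33, 6.43 and 6.76 in KO. These overlapped, with a log2 fold change of 0.29 (95% interval -0.03 to 0.61). The other *Trappc9* peak (chr15:72721351-72723150, intron) was denser per kb, at 5.26, 5.15 and 5.29 in WT and 4.97, 5.16 and 4.48 in KO. *Impact*, a regulator of the translation response to amino acid shortage, had a peak of 7050 bp over its start with 6.78, 7.14 and 6.95 in WT and 7.16, 6.75 and 6.96 in KO. The log2 fold change at *Impact* was 0.00 (95% interval -0.27 to 0.28), and 5 hexamers lay in this peak.

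*Airn* is the paternally expressed antisense RNA that silences *Igf2r*, the gene of the receptor that clears IGF2, and its promoter in an *Igf2r* intron is the control region. The peak beside the *Airn* start (chr17:12741451-12743700, 8 hexamers) was annotated with *Igf2r* and had levels of 5.70, 5.28 and 4.84 in WT and 5.97, 5.33 and 5.34 in KO. The spread within a genotype was wide, and the log2 fold change was 0.27 (95% interval -0.15 to 0.69). The inputs held 26 reads in WT and 32 in KO over this peak. After subtraction of the log2 input its fold change was -0.030. At the *Igf2r* promoter (chr17:12768751-12770250), which is methylated on the other parental chromosome, levels were 3.65, 4.43 and 4.65 in WT and 4.86, 5.04 and 4.48 in KO. That difference of 0.55 (95% interval 0.02 to 1.08, limma adjusted p = 0.44) did not pass either, and relative to input its WT level was only at the 3.12 percentile of all peaks. The widest peak of the 49, 15900 bp long (chr17:12814051-12829950), lay inside *Airn* over an alternative start and was 51.6% repeat sequence. It stood at 8.12, 8.39 and 8.38 in WT and 8.14, 8.18 and 8.24 in KO, with a log2 fold change of -0.11 (95% interval -0.32 to 0.10). The 2 remaining *Airn* peaks, in introns, had fold changes of -0.14 and 0.06. *Slc38a4*, an amino acid transporter gene, had a peak over its promoter (chr15:97052401-97056900) at 6.33, 6.08 and 6.07 in WT and 6.27, 6.31 and 6.48 in KO. Its log2 fold change was 0.19 (95% interval -0.11 to 0.50). *Inpp5f*, an inositol phosphatase gene, had a peak of 300 bp 878 bp upstream (chr7:128610151-128610450) with 2.80, 3.33 and 3.25 in WT and 2.32, 2.59 and 2.15 in KO. Although all KO values were lower, the log2 fold change of -0.77 carried a 95% interval from -1.77 to 0.22. The other *Inpp5f* peak, over exons, had a log2 fold change of -0.15 (SE 0.29).

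The Prader-Willi domain holds paternally expressed genes on a long stretch of chromosome 7, and its 7 peaks were spread over 5 of them. *Snrpn*, a splicing factor gene, had 2 narrow intronic peaks far from the *Snurf* promoter. At the denser (chr7:60060451-60060900) the level was 3.37, 2.45 and 3.25 in WT and 2.32, 3.02 and 3.77 in KO, the WT input held 2 reads, and the log2 fold change was 0.01 (95% interval -0.90 to 0.92). The other *Snrpn* peak is the weakest of the 49, with a WT mean of 2.42. *Ndn*, which encodes necdin, a growth suppressor of neurons, had a peak 269 bp upstream and another at its 3' end, with fold changes of -0.05 and 0.54. *Magel2*, of the same MAGE family, was covered by a peak within its exon (chr7:62377051-62380350), with a log2 fold change of 0.25. *Mkrn3*, a ubiquitin ligase gene, had levels of 5.34, 4.96 and 5.29 in WT and 5.56, 5.45 and 5.51 in KO over an annotated start of the gene (chr7:62419051-62421750), where 3 hexamers lay within 44 bases. All KO values were the higher ones, by 0.31 (95% interval -0.08 to 0.70). *Peg12*, a GSK-3 binding protein gene, showed the same order over its single exon (chr7:62462101-62464650), at 5.34, 4.65 and 5.01 in WT and 5.37, 5.58 and 5.69 in KO. Its log2 fold change was 0.55 (SE 0.20, limma adjusted p = 0.23). The mean fold change was positive at 6 of the 7 peaks of this domain, compared to 67.3% of the 49 and 50.3% of all peaks. None of the 7 passed the threshold. After subtraction of the log2 input it was -1.31 at the denser *Snrpn* peak, 1.23 and 0.01 at the *Ndn* peaks and -0.04 at *Magel2*. At *Mkrn3* and *Peg12* it was -0.11 and 0.94. The other *Snrpn* peak then had 3.27, where the KO input held 0 or 1 read.

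**Figure D4:**
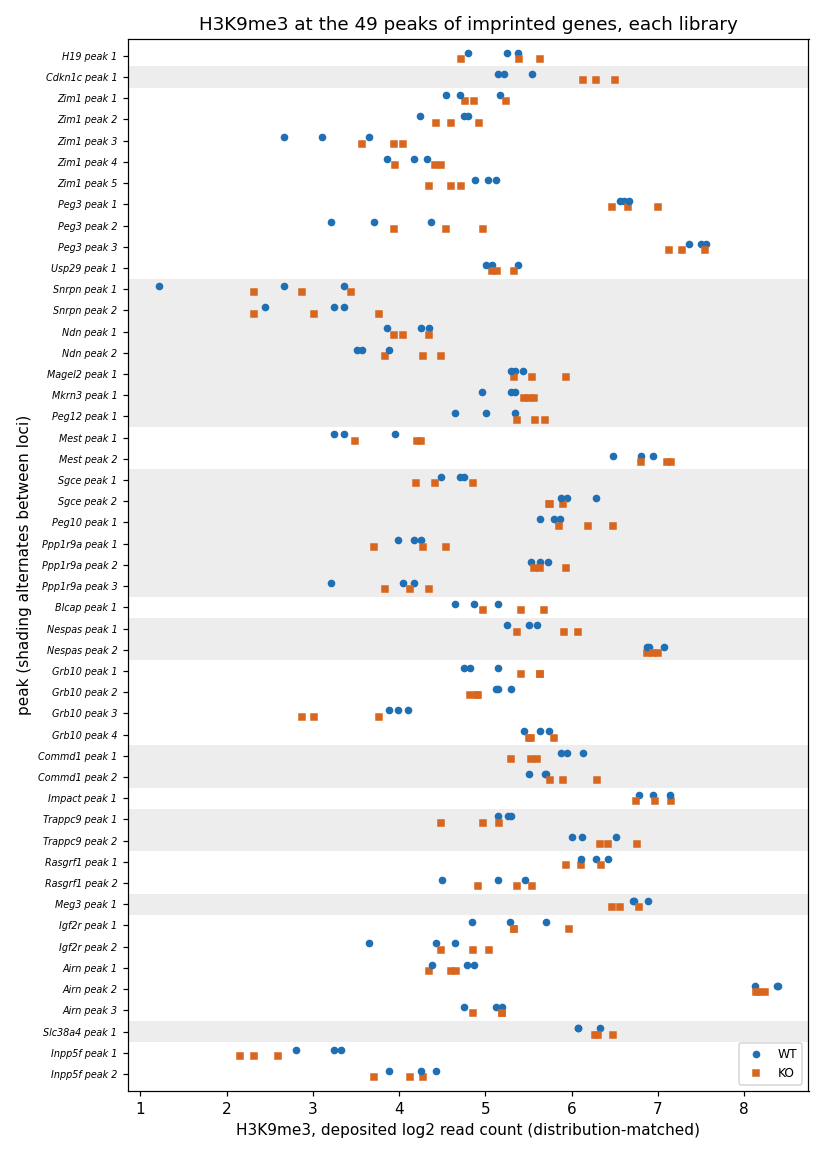
H3K9me3 level (x axis, deposited log2 read count per peak) in each of the 3 WT (blue circles) and 3 KO (orange squares) libraries at the 49 peaks (y axis, grouped by locus). At *Cdkn1c* the KO libraries sit at 6.13 to 6.50 and the WT libraries at 5.15 to 5.54, while at most other peaks the genotypes overlap.

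The level per kb of the imprinted peaks in WT was that of H3K9me3 peaks in general, with a median of 3.97 on the log2 scale for both. The percentile among all peaks was highest at the upstream *Inpp5f* peak (99.3), an intronic *Grb10* peak (91.0) and the *Peg3* promoter (90.8), and lowest at the narrow *Peg3* peak (2.51). Relative to input, the median over the 49 was 0.69 against 0.79 for all peaks, on a scale whose zero is arbitrary because the ChIP values were matched and the inputs were not. The value of 3.14 at a *Zim1* peak (chr7:6683701-6684450) rests on 0 or 1 input read.

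The genes that maintain imprints were taken from a list of 39 genes for ZFP57 and its partners, H3K9 and DNA methyltransferases and related factors. This list was chosen with earlier results of these data known, so its counts describe the list and do not test for an excess. Of the 39 genes, 11 had a peak, with 19 peaks in all. At 5 of the 19 H3K9me3 fell, compared to 0.863% of all peaks, while 0 rose. *Zfp445*, which encodes a zinc finger protein that maintains imprints beside ZFP57, accounted for 2 of them. Over its exons (chr9:122851351-122854950) the level was 5.79, 6.08 and 6.23 in WT and 5.41, 3.94 and 4.48 in KO, a log2 fold change of -1.42 (SE 0.23, limma adjusted p = 3.2e-05). Over its start (chr9:122855551-122863050) it was 7.99, 7.90 and 8.05 in WT and 7.23, 7.05 and 6.82 in KO, a log2 fold change of -0.95 (SE 0.12, limma adjusted p = 2.0e-07). *Smchd1*, a chromatin protein that acts at imprinted clusters and on the inactive X chromosome, accounted for another 2. Over an annotated start within the gene (chr17:71360401-71362200) the level was 4.93, 5.19 and 5.38 in WT and 3.57, 4.20 and 3.67 in KO, a log2 fold change of -1.35 (SE 0.25, limma adjusted p = 0.00047). Mostly over an intron (chr17:71420851-71425050) it was 6.85, 6.90 and 6.90 in WT and 5.97, 5.83 and 6.17 in KO, a log2 fold change of -0.90 (SE 0.15, limma adjusted p = 4.4e-05). The last was 3947 bp beyond the 3' end of *Cbx3*, the HP1 gamma gene (chr6:51487651-51489300, 5.30, 5.50 and 5.62 in WT and 4.92, 4.20 and 4.42 in KO, limma adjusted p = 0.0070). That call was lost without KO replicate 2 or WT replicate 3, where the list count was 4. The inputs held 13 to 73 reads over these 5 peaks in WT and 13 to 65 in KO. Under the variance prior without a trend none of the 5 passed.

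A second list, likewise chosen with earlier results known, named 53 further imprinted genes. Of these, 11 had a peak, with 30 peaks in all. At 2 of the 30 H3K9me3 fell, compared to 0.863% of all peaks, and 0 rose, compared to 0.796%. They lay in *Tbc1d22a* (chr15:86467951-86470050, 5.26, 5.22 and 5.60 in WT and 4.58, 4.54 and 4.35 in KO, limma adjusted p = 0.020) and in an intron of *Slc22a2*, an organic cation transporter gene near *Igf2r* (chr17:12596401-12597900, 4.82, 4.79 and 5.51 in WT and 4.16, 4.28 and 3.77 in KO, limma adjusted p = 0.028). The *Tbc1d22a* call was lost without KO replicate 3, WT replicate 1 or WT replicate 3, and the *Slc22a2* call without KO replicate 3 or WT replicate 3. Without either of the latter libraries the list held 1 higher and 0 lower call instead, at a peak of *Gm7120* (chr13:119595751-119603550), which is named here after its values were seen. Its levels were 7.85, 8.12 and 8.28 in WT and 8.88, 8.62 and 8.07 in KO, which overlap, with a log2 fold change of 0.44 and a limma adjusted p of 0.063. It also passed when peaks averaging under 4 were left out (limma adjusted p = 0.036). The inputs held 239 reads in WT and 286 in KO over this *Gm7120* peak, of which 71.6% was repeat sequence.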

How the data were processed

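Per the study's methods, the authors trimmed reads and mapped them to GRCm38 using Bowtie 2, dropped those under a mapping quality of 20 and called peaks with MACS in SeqMonk (fragment size 300 bp, p threshold 1e-05) on all ChIP libraries together. The submitters' processing notes name Trim Galore 0.6.1 and Bowtie2 2.3.2. Each deposited ChIP value is a log2 read count matched to a shared distribution, which would also remove a change common to most peaks. The deposited input values are unscaled log2 counts. A deposited table of the authors' own comparison was not used.

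KO and WT were compared with limma 3.58.1 (R 4.3.3) on the deposited log2 values (53761 peaks), two-sided, with a mean-dependent variance prior, no covariate besides genotype and Benjamini-Hochberg adjustment. The code was tested on simulated data. The study calls its replicates biological, but no source used here ties a library to an animal, so p-values measure the spread between libraries. Reads were recovered from value steps up to 100 reads. Gene models were GENCODE vM21, which held all 49 symbols, and sequence was the RefSeq copy of GRCm38, read with Python 3.11.15. The imprinted genes, both lists and the rule were chosen with earlier results of these data known. Values per library were given for each called peak, the densest peak per kb of each locus and each peak over a start of an imprinted gene, and other genes were named when a listed peak passed the threshold or a peak lay over an imprinted gene. Alternatives were an untrended prior, peaks with a mean log2 value of 4 or more, centring, ChIP minus input, a further quantile normalization, a replicate block, an adjusted p under 0.01, peaks overlapping the gene only, all peaks over a listed gene, and leaving out each library.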

Additional observations from a re-analysis of the deposited data

How the results depend on the processing

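Replicate numbers did not pair the libraries, since the deviations of libraries with the same number correlated at -0.0013, 0.0191 and 0.0164. With the replicate number as a block, 872 peaks were called over the whole table and 1 among the imprinted peaks. Centring, further quantile normalization, a mean log2 value of at least 4, peaks overlapping the gene only and all peaks over a listed gene also left 1 imprinted call. Leaving out single libraries gave 570 to 805 calls over all peaks (570 without WT replicate 2), 1 imprinted call, 4 to 5 calls among imprint maintenance genes and 1 to 2 among further imprinted genes (1 higher and 0 lower without KO replicate 3 or WT replicate 3, against 0 and 2 with all libraries). At an adjusted p under 0.01 the counts were 554, 1, 5 and 0. The untrended prior gave 127 (112 higher, 15 lower), 0, 0 and 0. A mean log2 value of at least 4 gave 4 among further imprinted genes (1 higher, 3 lower). ChIP minus input gave 15873, 12, 9 and 7. It changed the sign at 16 of the 59 peaks followed singly, and 5 of these passed the threshold after it: the *Zim1* peak chr7:6683701-6684450 (-2.29), a *Snrpn* peak (-1.31 at chr7:60060451-60060900), the upstream *Ndn* peak (1.23), a *Ppp1r9a* peak (-1.19 at chr6:5073901-5074800) and a *Grb10* peak (0.69 at chr11:12004951-12006900). With medians of 14 to 20 reads in a peak, depth limits what could be detected at narrow peaks, and parental alleles were not separated.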
